A study of Medicago truncatula with 160 samples.

Results

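The 200 Medicago truncatula transcripts described here were those whose level rose most with the share of rhizobial RNA among plants carrying the same strain. They were chosen by a rule on measured values from 12498 nuclear rows with a mean of at least 5 CPM (counts per 1000000 nuclear counts of a library), out of 49615 nuclear rows and 56121 rows in all. For each row, strain means were subtracted from log2(CPM + 1) and from the log2 rhizobial share of a library, and Pearson's r was taken over the 80 libraries of each host. The 200 rows with the highest value of the lower of the 2 hosts' r were taken as members. The r values are therefore a description of how the members were selected, and no test was run on them.

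The libraries came from root nodules of M. truncatula lines DZA and A17, each inoculated with 1 of 20 natural Sinorhizobium meliloti strains (named Ensifer meliloti in the labels), with 4 plants per host and strain and 160 libraries in all. The strains were 31, 89, 121, 141, 144B, 176A, 182, 199, 204, 206, 216, 230, 25B, 278, 282, 283, 335, 724B, 746B and 748B. The nodules of a plant were pooled, no treatment other than the strain was given in the labels, and no uninoculated group was analysed here. Reads from both hosts were assigned to A17 transcripts, with mRNA, noncoding RNA and ribosomal RNA among them, and to those of the S. meliloti reference strain, which is none of the 20 strains.

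In a nodule, rhizobia enter plant cells and differentiate into nitrogen-fixing bacteroids, and RNA of both partners is extracted together. Leghemoglobins carry oxygen in the infected cells, and NIN and NF-YA1 are transcription factors of infection and nodule formation. NCR169 is a secreted peptide and DNF1 a part of the signal peptidase complex, both needed for bacteroid development. The rhizobial share of a library is thus a measure of how the sequenced RNA, and not the number of cells, was divided between partners. Fewer plant cells and less RNA per plant cell could not be told apart.

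Libraries held between 28474905 and 75617864 counts in total. The rhizobial share was 3.68% at the lowest, 31.2% at the median and 87.5% at the highest on DZA, and 5.35%, 26.9% and 96.3% on A17. The log2 share was higher by 0.18 on DZA than on A17 averaged over strains, and the hosts were not told apart by this mean (two-sided permutation of host within strain, p = 0.28). Part of the rhizobial share came from 285 rhizobial rows without a protein accession. They held 5.37% to 89.9% of rhizobial counts on DZA, with a median of 39.2%, and 2.44% to 75.1% on A17, with a median of 45.45%. From rows with a protein accession alone, the median rhizobial share was 17.8% on DZA and 15.95% on A17. Nodule markers were present, with each of NIN, NF-YA1, NCR169 and DNF1 above 0 in every library. The 3 chlorophyll a-b binding genes, markers of green tissue, summed to at most 13.4 CPM in a DZA library and 15.2 CPM in an A17 library. When rhizobial rows that tell strains apart were read in each library, plant 3406 of strain 182 on DZA carried 100% of the rows particular to strain 176A and 0.0% of its own, and plant 3514 of strain 89 on A17 carried 100% of those of strain 724B and 0.77% of its own. A further 11 libraries held their own strain's rows together with at least 50% of those of a second strain. All 160 libraries were kept under their labels, and each count below is also given, where it moved by more than 1.5 times, without these 13.

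On the scale of nuclear CPM, whose total includes the members, a positive r was rare among plant transcripts. The median of the lower r over the 12498 rows was -0.71, and 1.83% of rows had a lower r above 0, a count of 229 that includes all 200 members by construction. In the members the lower r ran from 0.074 to 0.85, with a median of 0.37. The last members inside the limit were Chr1g0173311 (0.079), Chr7g0250971 (0.077) and Chr2g0295841 (0.074), where IDs are given without their shared prefix MtrunA17_. The first rows outside were Chr1g0173331 (0.073), Chr2g0305571 (0.073) and Chr8g0334321 (0.068), so the limit did not fall at a gap.

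**Figure D1:**
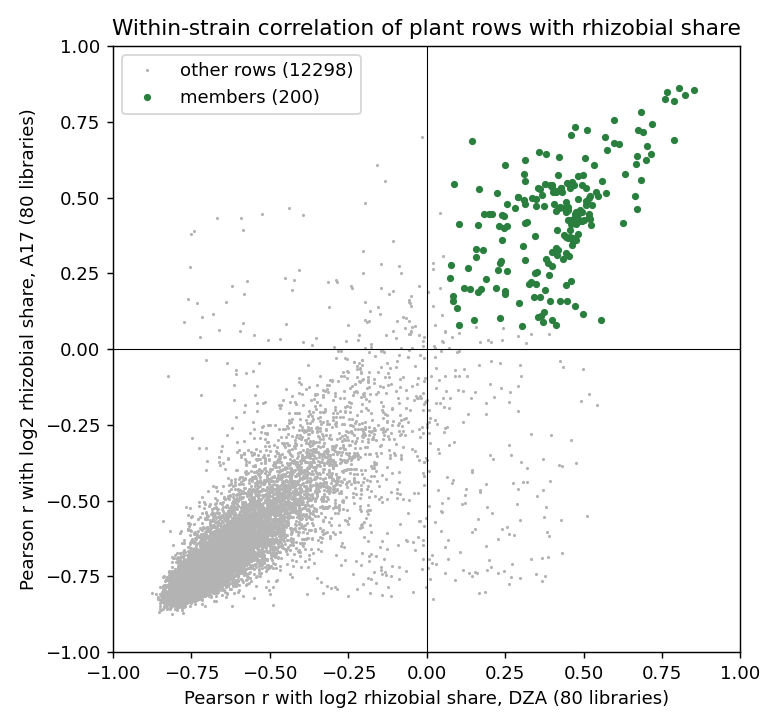
Pearson r of each nuclear row's log2(CPM + 1) with the log2 rhizobial share after strain means were subtracted, DZA on the x axis and A17 on the y axis, each over 80 libraries. Most of the 12298 other rows (grey) lie at negative r in both hosts, around the medians of -0.67 and -0.70, and the 200 members (green) fill the upper right corner by the way they were chosen.

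When the 200 rows with the highest r on DZA alone were read on A17, their median r was 0.42 against -0.70 over all rows, and 161 of them were above 0, as were 2.58% of all rows. The 200 rows highest on A17 had a median of 0.41 on DZA against -0.67 over all rows, with 174 above 0 against 3.12% of all rows. These 2 selections shared 140 rows. The rows highest in one host were thus mostly above 0 in the other, with exceptions as low as -0.76 in each direction.

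The members made up a large part of the plant counts. Together they held 13.8% of nuclear counts in the lowest DZA library, 39.4% in the median one and 91.5% in the highest, and 13.9%, 33.7% and 90.8% on A17. Among the members, the 10 with the highest mean CPM held 37.6% of nuclear counts in the median DZA library and 31.8% in the median A17 library. The other 190 were mostly low, and 84 members had a mean under 10 CPM. Which class of RNA a member is, mRNA, noncoding or ribosomal, is not given in the sources used here, so a member's level may not be that of a protein-coding gene. The study reports that the part of ribosomal RNA differed widely between samples. How much of the members' counts was ribosomal RNA was not tested. CPM is a share of counts and not a level per transcript length, so levels are compared below between libraries and not between members.

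**Figure D2:**
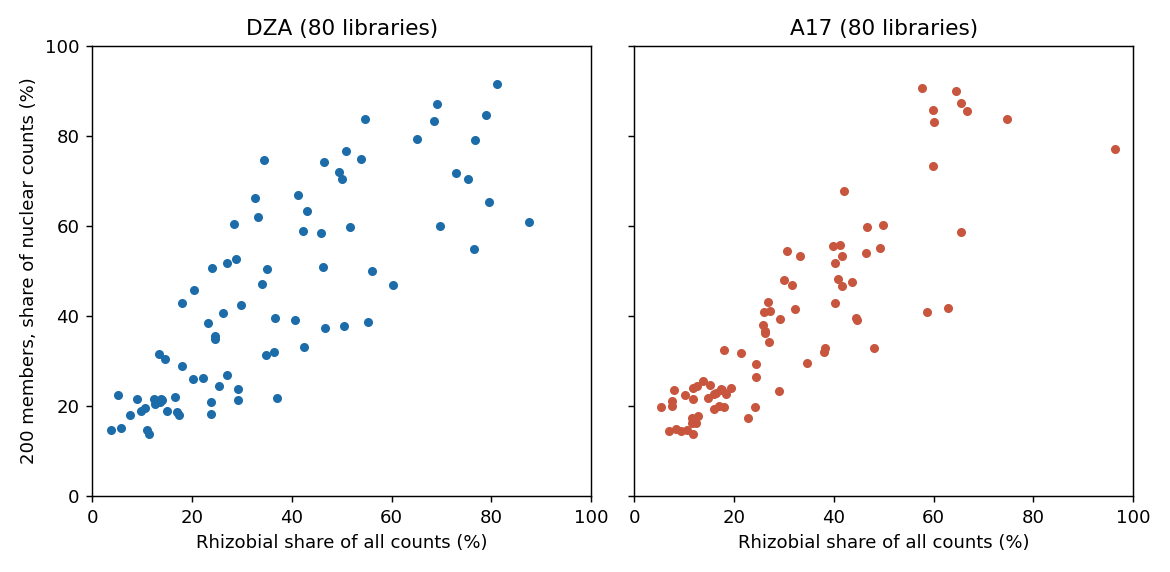
Share of nuclear counts held by the 200 members (y axis, %) against the rhizobial share of all counts (x axis, %), with 1 point per library and 80 libraries per host. The members' share runs from 13.8% to 91.5% on DZA and from 13.9% to 90.8% on A17, and its rise follows from how they were chosen. The highest values were in libraries where rhizobia held more than 50% of counts.

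Within strains, the log2 share of nuclear counts held by the members had an r with the log2 rhizobial share of 0.86 on DZA and 0.90 on A17, over 80 libraries each. The members were chosen for rising with this share in the same libraries, so a high r of their sum follows from the choice. The number of nuclear counts in a library moved the other way, with an r with the rhizobial share of -0.84 on DZA and -0.82 on A17, while total counts had -0.23 and -0.37. Within the rhizobial counts, the log2 share of the 285 rows without a protein accession had an r with the members' share of 0.56 on DZA and 0.49 on A17. These points share library, depth and denominator, and the part of depth in the members' rise was not tested beyond the refit that follows. With the log2 nuclear counts of a library taken out of both measures, 63 of the 200 members kept a lower r above 0 and the members' median was -0.13, against -0.46 over all rows.

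The scale on which plant levels were read set the level of r but not the sign for these rows. On edgeR log2 CPM after trimmed mean of M-values (TMM) scaling, which takes most transcripts to be equal between libraries, the median lower r over all rows moved from -0.71 to -0.45, and 1829 rows instead of 229 were above 0. The members' median moved from 0.37 to 0.58, and all 200 stayed above 0. The 200 highest rows on that scale included 104 of the members, so other rows rose as strongly once scaling was changed.

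The highest member was Chr4g0000621, with an r of 0.851 on DZA and 0.854 on A17. Its level was 4080 CPM in the lowest, 16800 in the median and 39600 in the highest DZA library, and 3660, 13200 and 53900 on A17. Within strains it rose by 0.87 on the log2 scale for each doubling of the rhizobial share on DZA and by 0.95 on A17, against medians of -0.58 and -0.59 over all rows. The plant with the highest share also had the highest level of this transcript in 14 of 20 strains on DZA and in 15 of 20 on A17. No product or name was found for it in the sources used here.

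Chr5g0422081, the member with the highest mean at 126700 CPM, followed with 0.822 on DZA and 0.839 on A17. It ran from 24700 through a median of 125000 to 322000 CPM on DZA and from 24800 through 110000 to 311000 on A17. Its highest library on DZA, plant 3229 of strain 206, had a rhizobial share of 34.4%, near the middle of the range. Chr5g0422041 (0.787 and 0.819) ran from 6320 to 137000 CPM on DZA and from 4340 to 162000 on A17. Chr5g0422301 (0.766 and 0.849) ran from 1500 to 67000 CPM on DZA and from 1410 to 63900 on A17, and on DZA its highest plant was also the plant with the highest share in 17 of 20 strains.

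High and low rows were mixed among the 12 members of highest r. Chr5g0435901 (0.805 and 0.862) ran from 1.95 to 27.2 CPM on DZA and from 1.76 to 47.7 on A17. Chr7g0229401 (0.761 and 0.825) ran from 4.50 to 43.2 CPM on DZA and from 5.54 to 352 on A17. The others of the 12 were Chr0c03g0489951, Chr5g0422361, Chr2g0300131, Chr4g0073121, Chr1g0164571 and Chr0c01g0488931, with a lower r between 0.67 and 0.72.

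Plants labelled with a single strain show the size of the rise. On the log2 scale, the rhizobial share ranged most widely on DZA in strain 282, with 5.79%, 27.1%, 42.5% and 69.1% of counts in its 4 plants. In that order, Chr4g0000621 was at 4077, 19190, 19040 and 26740 CPM. Chr5g0422301 was at 2182, 7105, 7178 and 54450 CPM. The lowest plant of strain 282 was the lowest for both transcripts and the plant with the highest share was the highest.

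On A17 the widest range on the log2 scale was in strain 724B, with shares of 7.56%, 26.2%, 32.2% and 74.7%. Chr4g0000621 stood at 6620, 13440, 24600 and 42720 CPM in that order. Chr5g0422081 stood at 64120, 114900, 119200 and 300500 CPM. Both followed the order of the share in all 4 plants. Plant 3246, with the highest share, was a library of mixed strains. It held 90.7% of the rows particular to strain 278 besides 100% of its own. The 200 members together held 21.2%, 36.3%, 41.5% and 83.7% of the nuclear counts of these plants, and 15.2%, 51.9%, 33.1% and 87.0% in those of strain 282 on DZA, where the middle plants were in reverse order.

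**Figure D3:**
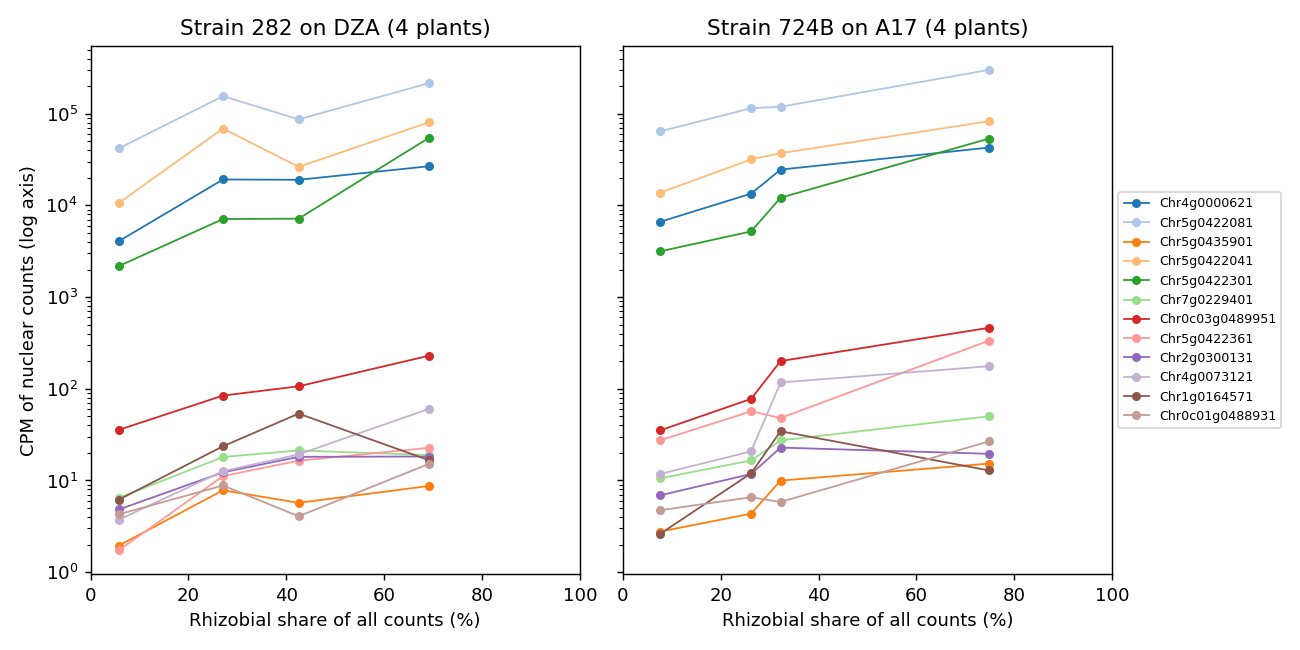
Level of the 12 members with the highest r in each of the 4 plants of strain 282 on DZA (left) and strain 724B on A17 (right), in CPM on a log axis, against the rhizobial share of the library in %. Each line joins the 4 plants for 1 transcript, and the plant with the lowest share had the lowest level of each of the 12 in both strains, except Chr0c01g0488931 in strain 282 (4.28 CPM there and 4.07 CPM at a share of 42.5%). The 724B plant with the highest share also held rows of strain 278.

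The IDs of many members were neighbours in number. A run of 17 members lay between Chr5g0422021 and Chr5g0422361, out of 24 rows of sufficient level and 34 rows in the table over that stretch of numbers. It includes Chr5g0422081, Chr5g0422041, Chr5g0422301, Chr5g0422361 and Chr5g0422141. The 17 members of the run held 10.9%, 32.6% and 81.0% of nuclear counts in the lowest, median and highest DZA library, and 10.1%, 27.5% and 79.3% on A17, and so carried most of the members' counts. Chr5g0422141 was listed at 0 in 3 DZA libraries and 1 A17 library and reached 466000 CPM in plant 3314 of strain 748B on DZA, with 101000, 118000 and 119000 CPM in the other plants of that strain. If rows of the run are near-identical copies, the assignment of reads among them is uncertain, and no sequence of them was read here.

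Other short runs were found on scaffolds and chromosomes. A run of 6 members lay between Chr0c01g0488931 and Chr0c01g0489121, with 1.92% of nuclear counts in the median DZA library and 14.3% in the highest. Another 6 lay between Chr0c03g0489841 and Chr0c03g0490101, and 4 lay between Chr4g0015941 and Chr4g0016141, with 1.75% of nuclear counts in the median DZA library. In all, 14 members were on unplaced scaffolds (Chr0c), which carried 42 of the 12498 rows.

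A second feature was the series of the ID. Of the members, 47 (23.5%) had an ID whose 7-digit number starts with 1, as in Chr5g1024440, against 72 (0.58%) of the 12498 rows. Of the 1888 rows of this series in the table, 72 had a sufficient level, and the members took 65.3% of those 72. These 47 held little RNA, with 0.076% of nuclear counts in the median DZA library and 1.07% in the highest. Their median pairwise r within strains was 0.91 on DZA and 0.77 on A17, compared with 0.42 and 0.44 in the chromosome 5 run. Both sets were chosen for following the same share in these libraries, which favours a high r between members, so nothing is read from these values. On DZA, 12 of the 47 were highest in 1 library, plant 3420 of strain 25B. What the series stands for is not given in the sources used here.

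The level of a member can also be read against rhizobial counts. For 52 of the 200 members, the spread between plants of a strain was smaller when the counts were scaled to the rhizobial counts of a library than when scaled to its nuclear counts, in both hosts. Over all 12498 rows the number was also 52 (0.42%), so every such row was a member, as the rule favours. Chr4g0000621 had a within-strain SD of 0.89 on the log2 scale relative to rhizobial counts and of 1.05 relative to nuclear counts on DZA. Of the 52, 22 were in the ID series starting with 1 and 4 in the chromosome 5 run.

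A few libraries held the highest level of many members. On A17, plant 3110 of strain 216, with the highest rhizobial share (96.3%), had the highest level of 79 of the 200 members. It also had the fewest nuclear counts on A17 (2069369 against a median of 33871435) and the highest organelle share of plant counts (9.355%). On DZA, plant 3359 of strain 31, with the highest share there (87.5%), had the highest level of 67. Its 6233785 nuclear counts were the fewest on DZA, where the median was 30420486. The rule favours rows that are high where the rhizobial share is high. The share of all rows that were highest in these libraries was not counted, so nothing is read from these counts. Of the 47 members of the ID series starting with 1, 16 were highest on A17 in plant 3341 of strain 199 and 15 in plant 3282 of strain 335. Without plant 3110, 196 of the members were chosen again by the rule, and without plant 3359, 198 were.

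Whether the members also followed the share between strains was asked from strain totals. The rule had subtracted strain means of the log2 level, but the totals come from the same libraries that chose the members and are weighted towards their highest plants, so these counts are not independent of the choice. Counts were summed over the 4 plants of each strain, and the slope on the strain mean log2 share was tested over 20 strains with edgeR's quasi-likelihood test and Benjamini-Hochberg adjustment over all nuclear rows. On DZA, 95 of 198 members tested rose with the strain mean share and 0 fell at an adjusted p under 0.05. Of all rows tested, 9.68% rose and 6.73% fell. The median change was 0.97 on the log2 scale per doubling of the share in the members and 0.02 over all rows.

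The 3 members with the smallest p on DZA all lay in the chromosome 5 run. Chr5g0422341 ran from 14.5 through a median of 139 to 1300 CPM over the DZA libraries and rose by 0.97 per doubling (SE 0.084, adjusted p = 3.85e-06). Chr5g0422351 ran from 13.6 through 64.4 to 1240 CPM, with a slope of 1.355 (SE 0.127, adjusted p = 8.32e-06). Chr5g0422071 ran from 0.438 through 27.2 to 682 CPM, with a slope of 1.287 (SE 0.127, adjusted p = 1.18e-05). Of the 12 members of highest within-strain r, 1 was called, Chr5g0422361 with a slope of 1.132 (SE 0.319, adjusted p = 0.022). The slope was not past the threshold in the others, with a value of 0.40 for Chr4g0000621 (SE 0.198, adjusted p = 0.16) and of 0.35 for Chr5g0422081 (SE 0.306, adjusted p = 0.44).

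Without the 2 strains farthest from the median share, 56 members rose on DZA and 0 fell, against 436 and 163 of the 36890 rows tested. Strain mean share and plant depth shared the same libraries, so their parts in these slopes cannot be told apart.

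On A17, 0 of 199 members passed, and the smallest adjusted p of a member was 0.24. This count did not hold when 1 plant of each strain was left out in turn, which gave 21, 67, 92 and 163 members that rose and 0 that fell. In these fits, in the same order, 119, 230, 1185 and 2435 of all rows rose and 188, 4, 2117 and 1478 fell. Between 35695 and 36674 rows were tested in them. In the main fit, 0.00265% of all rows rose and 0.00265% fell, which is 1 row in each direction of 37804. At an unadjusted p under 0.05 there were 155 members (77.9%) against 4078 rows (10.8%), and the members' median slope was 0.96 against 0.06 over all rows. DESeq2 called 10 members and 66 of all rows, and limma-voom 0 of either. When the 3 largest rhizobial rows were left out of the share, 119 members rose and 0 fell, against 1754 and 55 of all rows. Without the 13 libraries that held another strain's genes 2 members rose, against 9 of all rows. Library size scaling moved the median slope over all rows to -0.14 and that of the members to 0.74, with 198 of 199 members keeping the sign of their slope. The difference between the hosts' slopes was not tested.

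**Figure D4:**
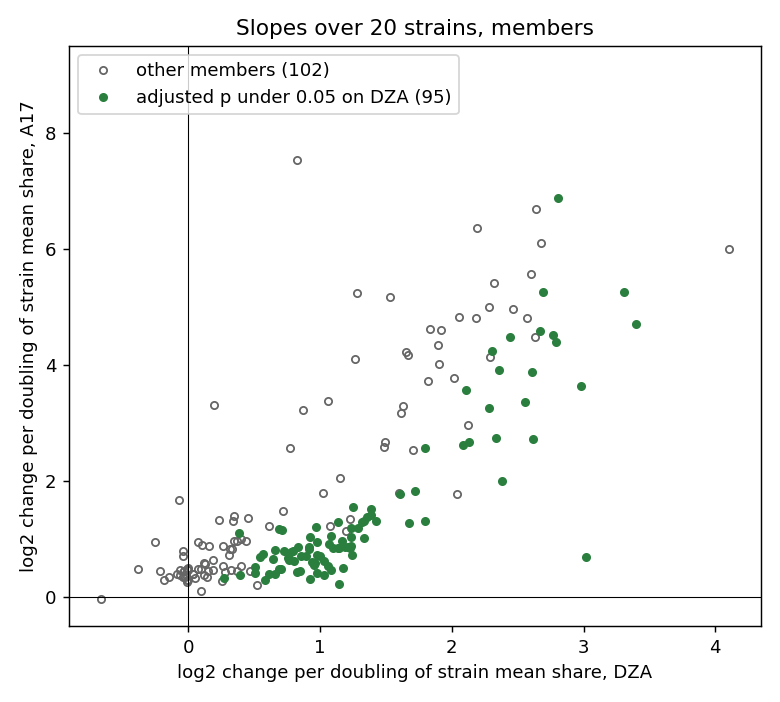
Change in log2 level per doubling of the strain mean rhizobial share, DZA on the x axis and A17 on the y axis, for the 197 members tested in both hosts over 20 strains each. Filled points are the 95 members past an adjusted p of 0.05 on DZA, and most of the points lie above 0 on both axes.

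Between strains as such, 56 of 198 members differed on DZA and 70 of 199 on A17 (edgeR quasi-likelihood test over 20 strains, adjusted p under 0.05). The shares over all rows were 4.01% on DZA and 1.60% on A17, but many members had reached the mean of 5 CPM through a few libraries, so nothing is read from the difference. On DZA 45 members had a median under 1 CPM, and on A17 45, as Chr6g0485771 with a median of 0.152 and a highest value of 261 CPM on DZA. These calls depended strongly on the tool, since limma-voom called 1 and 0 members and DESeq2 98 and 129. Over all rows, limma-voom called 1077 on DZA and 90 on A17, and DESeq2 3328 and 3606. With the log2 rhizobial share of the library added to the model, 9 of 198 members on DZA and 13 of 199 on A17 differed between strains. In those fits 1593 of 33928 rows differed on DZA and 118 of 34548 on A17. In 38 of the 56 members called on DZA and in 45 of the 70 on A17, the highest library of the host was more than 10 times the next library of the same strain. Over all 200 members this held for 52 on DZA and for 109 on A17, members not called included.

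The members with the smallest p show this. Chr5g0422261, the first on A17 (adjusted p = 2.22e-11), was highest in strain 199, at 19.7, 31.8, 7770 and 180000 CPM in its 4 plants, against a median of 32.3 CPM over A17. Without plant 3388 of strain 199, its adjusted p was 0.000125. Chr0c01g0489091 (adjusted p = 1.35e-09) was at 0.123, 0.201, 0.853 and 433 CPM in strain 176A on A17. Chr4g1017747 (adjusted p = 5.55e-09) was at 1.64, 1.88, 6.43 and 230 CPM in strain 199 on A17. In each, 1 plant stood far above the rest of its strain.

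On DZA, Chr5g0422021 (adjusted p = 3.53e-06) was at 1.35, 1.87, 2.07 and 103000 CPM in strain 89. Chr6g0454421 (adjusted p = 2.8e-06) was at 2.89, 3.29, 68.8 and 1220 CPM in strain 144B. Here too the highest values came from 1 plant of the strain. Without plant 3452 of strain 89, which held the 103000 CPM, the adjusted p of Chr5g0422021 was 2.42e-06.

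Chr3g0132401 was the member with the smallest p on DZA (adjusted p = 3.08e-07) and the one that limma-voom called too (adjusted p = 0.00153). It was at 4.99, 18.6, 52.9 and 60.5 CPM in strain 182, with 4.99 in plant 3406, the library that carried the genes of strain 176A. In strain 89 it was at 6.55, 9.39, 12.8 and 52.7 CPM. The other 19 strains had a median of 5.22 CPM in 76 libraries and a highest value of 56.7, so the groups overlapped. Its adjusted p was 1.11e-08 without plant 3406. On A17 it was at 6.11 to 14.6 CPM in strain 182, and the strains did not differ by this test (adjusted p = 1.0).

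Between the hosts, 86 of the 200 members (43.0%) were higher on DZA and 32 (16.0%) lower, with strain as a factor (edgeR quasi-likelihood test, adjusted p under 0.05). Over all rows, 26.0% were higher and 27.1% lower. Members had to reach a mean of 5 CPM over the libraries of both hosts, and some did so through 1 host. The rows tested had a looser filter, so nothing is read from the difference in shares. The members' median log2 difference was 0.62 and that over all rows 0.06. With the log2 rhizobial share added to the model, the members' median was 0.34, with 79 higher and 43 lower. In that fit 10346 of all rows were higher and 10454 lower. By limma-voom the members' median was 0.39, with 63 higher and 36 lower, against 11589 and 10620 of all rows. Some called members were near 0 at the median in both hosts, as Chr6g0485771 (log2 difference 3.17) with 0.152 CPM on DZA and 0.0938 on A17. Leaving out 1 plant of each strain and host in turn gave between 42 and 110 members higher on DZA and between 25 and 33 lower. Reads of both hosts were assigned to the A17 genome, so a difference in level and a difference in sequence between the lines cannot be told apart.

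The next 3 members were picked for the smallest p among those lower on DZA. Chr5g0441681 was at 2.57 CPM in the lowest, 12.7 in the median and 87.8 in the highest DZA library and at 1780, 7250 and 16500 on A17 (adjusted p = 2.5e-59). Chr4g0021491 did not exceed 0.235 CPM on DZA and was at 0.675, 7.79 and 697 CPM on A17 (adjusted p = 4.58e-54). Chr7g1031866 was at 0.0, 0.487 and 3.04 CPM on DZA and at 5.16, 33.3 and 100 on A17 (adjusted p = 3.45e-51). In each of these the groups did not overlap, and how many of all rows had no overlap was not counted. Chr4g0021491 and Chr7g1031866 stayed under 5 CPM in every DZA library. They reached the mean of 5 CPM through A17 alone, so nothing is read from their differences.

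Chr8g0341391 was the member with the smallest p among those higher on DZA, at 4.19, 10.2 and 32.5 CPM there and at 0.0, 0.0877 and 1.85 on A17 (adjusted p = 7.42e-49), again with no overlap. Chr1g0171971 had medians of 14.9 CPM on DZA and 0.668 on A17, a log2 difference of 3.98 (SE 0.287, adjusted p = 4.6e-27). Chr5g0393641 had medians of 33.6 and 7.42 CPM, a log2 difference of 2.16 (SE 0.158, adjusted p = 1.57e-26). In both, the ranges of the hosts overlapped.

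Of the 12 members with the highest r, 3 differed between hosts. Chr5g0422361 was lower on DZA, with a median of 9.86 CPM against 53.8 on A17 and a log2 difference of -2.0 (SE 0.376, adjusted p = 1.6e-06). Chr1g0164571 had medians of 23.7 CPM on DZA and 10.7 on A17 (log2 difference 1.107, SE 0.22, adjusted p = 5.42e-06). Chr5g0422301 was higher on DZA by 0.83 (SE 0.339, adjusted p = 0.031). For Chr4g0000621 and Chr5g0422081 the differences of 0.21 (SE 0.272, adjusted p = 0.53) and 0.26 (SE 0.274, adjusted p = 0.43) were within the error.

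**Figure D5:**
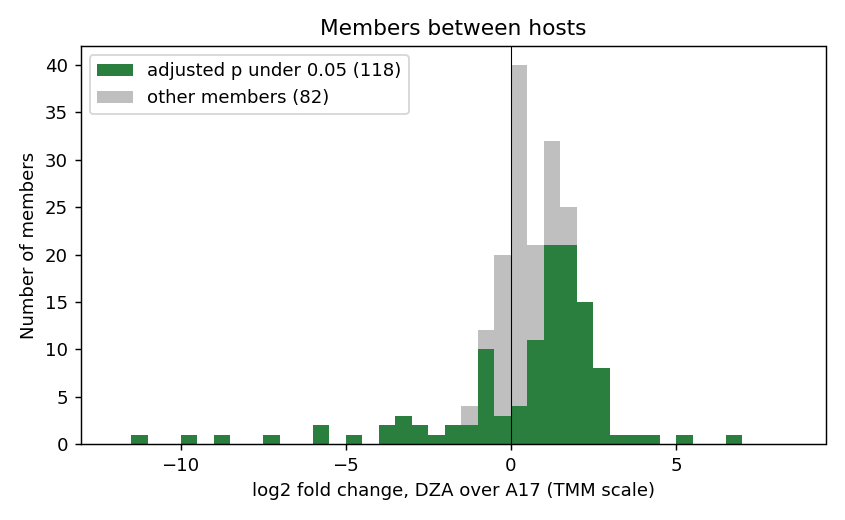
Number of members (y axis) by log2 fold change of DZA over A17 on the TMM scale (x axis, bins of 0.5). Green bars are the 118 members past an adjusted p of 0.05 and grey bars the other 82, stacked, with most of the called members between 0 and 3 and a tail of strongly lower rows on the left.

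Few members carried an annotation in the sources used here. Of 15 lists of symbiosis genes and of gene groups from the study's coexpression modules, 2 lists held a member. Chr2g0304071, listed with endonuclease activity, had an r of 0.228 on DZA and 0.262 on A17, with medians of 4.90 CPM on DZA and 10 on A17. Chr4g0015971, a nuclear row annotated as a protein of the kind that organelle genomes encode, had 0.235 and 0.101, and its median was at 0 in both hosts. The coexpression modules were built on these samples and are no independent evidence.

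None of the known symbiosis genes on the lists was a member, and on nuclear CPM their r was close to that of all rows. The 8 leghemoglobin-type oxygen carriers of sufficient level had a median lower r of -0.77, the 12 genes of bacteroid differentiation and maintenance -0.78, and the 13 of infection and early nodule stages -0.72, against -0.71 over all rows. On TMM log2 CPM these medians were -0.73, -0.71 and -0.52, further below the -0.45 over all rows. In the test on strain mean share on DZA, 0 of 9 oxygen carriers rose and 1 fell, 0 of 14 genes of the nitrogen-fixing zone rose and 6 fell, and 0 of 26 translation initiation factors rose and 17 fell. Of 9 peroxidases 1 rose and 0 fell, and of 3 nitrate transporters none passed. These stand against 9.68% of all rows that rose and 6.73% that fell, and on A17 no gene of the lists passed the threshold. Of mitochondrial rows read on the same scale, 55 of 146 had a lower r above the members' limit, as had 5 of 92 plastid rows, so a rise with the rhizobial share was also found outside the nuclear rows.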

How the data were processed

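RNA from nodules of single plants was prepared with a stranded mRNA kit and sequenced as paired ends. Per the labels and methods, the authors demultiplexed with bcl2fastq 2.20 and quantified with Salmon 1.4.0 against A17 transcripts (annotation release 5.0, with mRNA, noncoding RNA and ribosomal RNA) joined with those of the S. meliloti reference strain, and the deposited table holds bias-corrected estimated counts (R 4.1.0). Of the values above 0, 0.034% were whole numbers. Counts were rounded for the tests.

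CPM was taken over nuclear rows. Rows reaching 10 counts in 4 or more libraries were tested with edgeR 4.0.16 (quasi-likelihood, TMM), with limma 3.58.1 (voom) and DESeq2 1.42.0 as alternatives, in R 4.3.3. Adjusted p-values follow Benjamini-Hochberg over all rows tested. The host difference in share used 100000 permutations. In a strain check on the rhizobial rows with protein accessions, a row counted as particular to a strain above 10 CPM there and under 0.3 in the other, and as seen above 2. No 2 libraries had identical values.

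On simulated counts, the host test called 185 of 200 planted rows and 7 others, the strain test 199 and 3, and the slope test 135 and 4. Named rows were the 12 members of highest lower r, 3 on each side of the limit, the 3 with the highest mean CPM, members on any gene list, and in each test the 3 with the smallest p in each direction. Members and lists were chosen with earlier results of these data known. Plants are the replicates, and library totals are given with the results. Alternatives covered the scaling, tool, filter, share, covariates and libraries left out.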

Additional observations from a re-analysis of the deposited data

Results flagged for a closer look

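Among the 40 groups of 4 plants, 4 had a plant whose rhizobial share of counts stood far from the other 3, and all 4 were on A17. In strain 121, plant 3373 had 39.8% against 7.98%, 10.5% and 11.8% in the others. In strain 182, plant 3378 had 9.42% against 40.8%, 43.6% and 44.5%. In strain 204, plant 3168 had 59.9% against 11.8%, 17% and 19.5%. In strain 216, plant 3110 had 96.3% against 22.9%, 25.9% and 26.1%.

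The share of nuclear counts held by the 200 members stood apart in 2 groups. Plant 3168 of strain 204 on A17 had 73.2% against 13.9%, 20.0% and 24% in the other plants, and was the plant with the high rhizobial share. Plant 3503 of strain 335 on DZA had 59.9% against 21.5%, 26.0% and 26.9%, at a rhizobial share of 69.8%. A plant was set apart when its gap to the nearest plant, as a part of the group's range, passed Dixon's 95% critical value for 4 samples, which chance passes in about 1 in 20 groups.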

How the results depend on the processing

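The choice of members kept 181 to 200 rows when the rhizobial rows behind the share, the organelle rows, rank correlation, the organelle share or single doubtful libraries were changed, and 187 to 192 when 1 plant of each group was left out. It kept 104 rows on TMM log2 CPM, 86 with a mean CPM of at least 1, 78 with at least 20 (where 78 members have that level), and 62 with nuclear counts taken out. With nuclear counts taken out, the lower r turned negative for Chr1g0173311 (-0.465), Chr7g0250971 (-0.164), Chr2g0295841 (-0.079), Chr5g0422141 (-0.264) and Chr2g0304071 (-0.091). It also turned for Chr4g0015971 without the 3 largest rhizobial rows (-0.07) and with rows of protein accession alone (-0.069). Leaving out 1 plant per group, it ran from -0.118 to 0.152 for Chr7g0250971 and from -0.073 to 0.175 for Chr4g0015971. The cause was not tested.

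The host difference in share stayed between 0.003 and 0.285. Leaving out 1 plant per group, members differing between hosts numbered 70 to 135, with 42 to 110 higher and 25 to 33 lower on DZA. Members differing between strains on DZA numbered 98 by DESeq2, 1 by limma-voom, 9 with the share added and 11 to 78 leaving out plants. On A17 they numbered 129, 0 and 13 in the same order, 113 by library size alone, and 62 to 78 leaving out plants. Members following the strain mean share on DZA numbered 56 without the 2 farthest strains and 88 to 138 leaving out plants. On A17, where the main count was 0, there were 10 by DESeq2, 119 without the 3 largest rhizobial rows, 2 without the 13 libraries that held another strain's genes, and 21 to 163 leaving out plants. DESeq2 gave no adjusted p to 4 members between hosts and to 3 and 5 between strains. Library size scaling, the leave-outs of named libraries and the share from protein rows were added after seeing the data. The other counts stayed within 1.5 times.

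No paired analysis was possible because the plants of different groups share no numbers.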
